A study of Mus musculus with 6 samples.

Results

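The junctional adhesion molecules (JAMs) and their relatives of the CTX family were examined in mammary tumors with and without JAM-A. The set was chosen by name and holds 8 genes out of 19938 that the arrays measured with a probe set of a single gene symbol. It consists of F11r, the gene of JAM-A that was deleted, and 7 relatives, Jam2, Jam3, Cxadr, Esam, Clmp, Igsf5 and Igsf11. Each of the 8 genes was read by 1 probe set. The question put to the data was whether the transcript of any relative was higher in tumors that lacked JAM-A.

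Early mammary tumors, 3 of the genotype MMTV-PyVmT/JAM-A-/- (numbered 5333, 5346 and 5347) and 3 MMTV-PyVmT/JAM-A+/+ (5369, 5370 and 5393), were compared, 1 Affymetrix Mouse Gene 1.0 ST array per tumor. All 6 tumors therefore carried the polyoma virus middle T oncogene, which the MMTV promoter drives mainly in mammary epithelium, and the groups differed in the constitutive loss of JAM-A, which affects every cell type of the tumor and not the epithelium alone. The controls were JAM-A+/+ littermates by the study's methods. The sources used here do not give the mice's age at resection, the strain of the array animals or the litter of a tumor. Nor do the labels state that each tumor is from another mouse. The p-values measure the spread between these tumors, biological and technical together, which may not be the spread between mice. Values are deposited RMA expression values on the log2 scale, on which a difference of 1 is a doubling, and the number of arrays limits their precision.

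JAMs and their relatives are single-pass membrane proteins with a pair of immunoglobulin-type domains outside the cell and, in most members, a tail that binds PDZ domains. They sit at tight junctions and other lateral contacts of epithelium and endothelium, where they bind the same molecule, each other or leukocyte integrins across the intercellular space and tether scaffold and polarity proteins inside the cell. JAM-A is found at tight junctions of mammary ducts, on endothelium and on leukocytes and platelets.

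F11r itself was low in all tumors labelled JAM-A-/-. Its log2 value was 5.91, 5.55 and 6.53 in JAM-A-/- tumors, against 10.10, 10.23 and 10.47 in JAM-A+/+ tumors. No value of one genotype lay near those of the other, and 3.57 log2 units separated the highest JAM-A-/- tumor from the lowest JAM-A+/+ tumor. The means were 6.0 ± 0.50 in JAM-A-/- tumors and 10.27 ± 0.19 in JAM-A+/+ tumors (SD, n = 3 each), a log2 difference of -4.27 (SE 0.24, 95% interval -4.84 to -3.70), so that the signal in JAM-A-/- tumors was 5.18% of that in JAM-A+/+ tumors (95% interval 3.50% to 7.67%). This was the lowest difference of all 19938 genes, and F11r was the only probe set with a limma adjusted p under 0.05 (adjusted p = 0.00667, 0.00281% of 35557 probe sets). The sources used here give neither the exons that the null allele lacks nor the place of the probes along the transcript, and an array signal of this size does not separate background from residual transcript. Under the exact permutation test the two-sided p was 0.1, the smallest that 3 against 3 tumors can give. Leaving out tumor 5333, 5369, 5370 or 5393 raised the adjusted p to 0.0507, 0.0839, 0.0794 and 0.0576, in this order, while the log2 difference stayed between -4.54 and -4.05 over the 6 fits with 1 tumor left out.

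**Figure D1:**
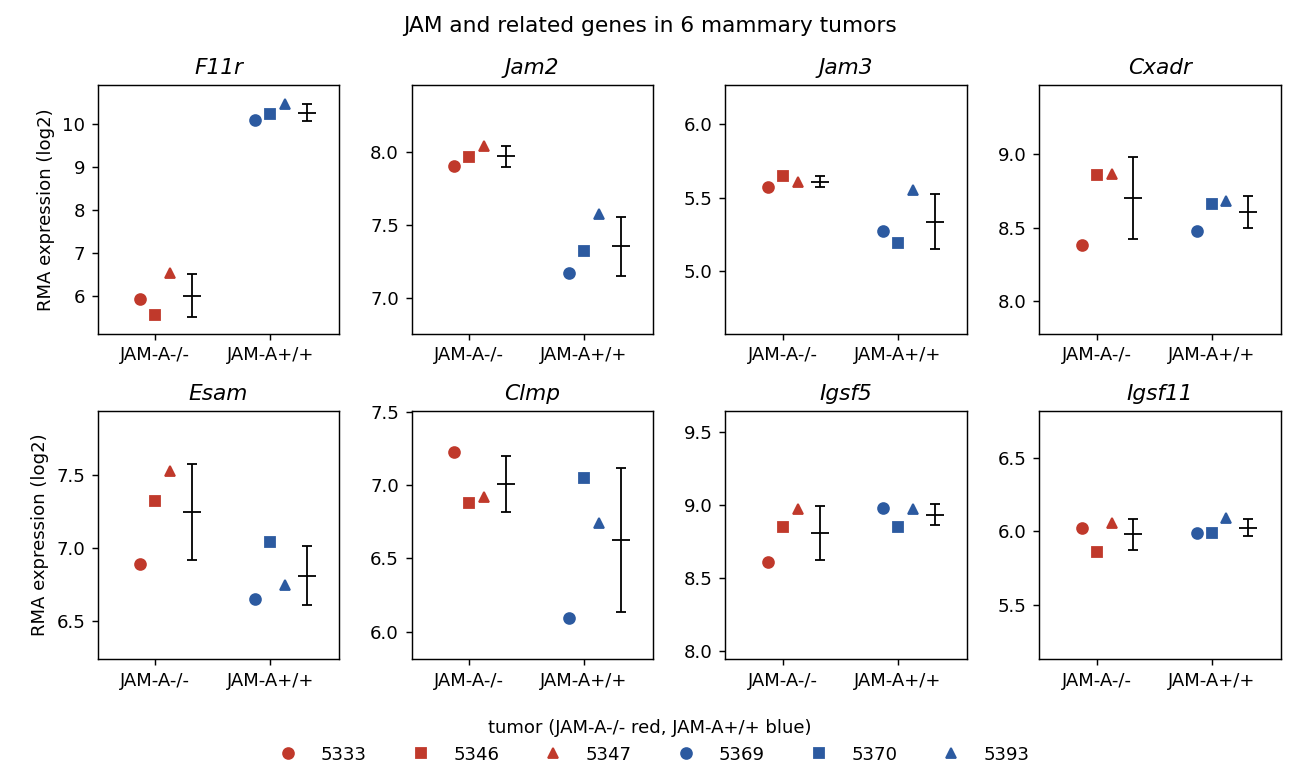
Deposited log2 expression of the 8 genes in each tumor, JAM-A-/- in red on the left of each panel and JAM-A+/+ in blue on the right, with the mean and SD of 3 tumors as a black bar and cap. The panel of F11r spans a wider range than the others, which share 1 span. F11r and Jam2 show groups that lie well apart, the groups of Jam3 are separated by 0.02, and those of the other 5 genes overlap.

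Among the relatives, Jam2 alone met the thresholds used for the arrays, an unadjusted limma p under 0.05 together with a change of 1.3-fold or more, and it was higher in JAM-A-/- tumors. It was 1 of 7 relatives (14.3%), beside 4.73% of all genes that met them in that direction. None of the 7 met them in the lower direction, beside 0.592% of all genes. No relative passed the adjustment over all probe sets (adjusted p 0.256 to 0.906). The log2 difference was above 0 for 5 of 7 relatives (71.4%), almost exactly the share of all genes (71.8%), since most genes were slightly higher in JAM-A-/- tumors. The median difference of the relatives was 0.27, beside 0.09 over all genes. All JAM-A-/- tumors lay above all JAM-A+/+ tumors for 2 relatives, Jam2 and Jam3, beside 12.4% of all genes, and the reverse order held for F11r and for no relative, beside 2.55% of all genes. None of the relatives lies on the chromosome that carries F11r.

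**Figure D2:**
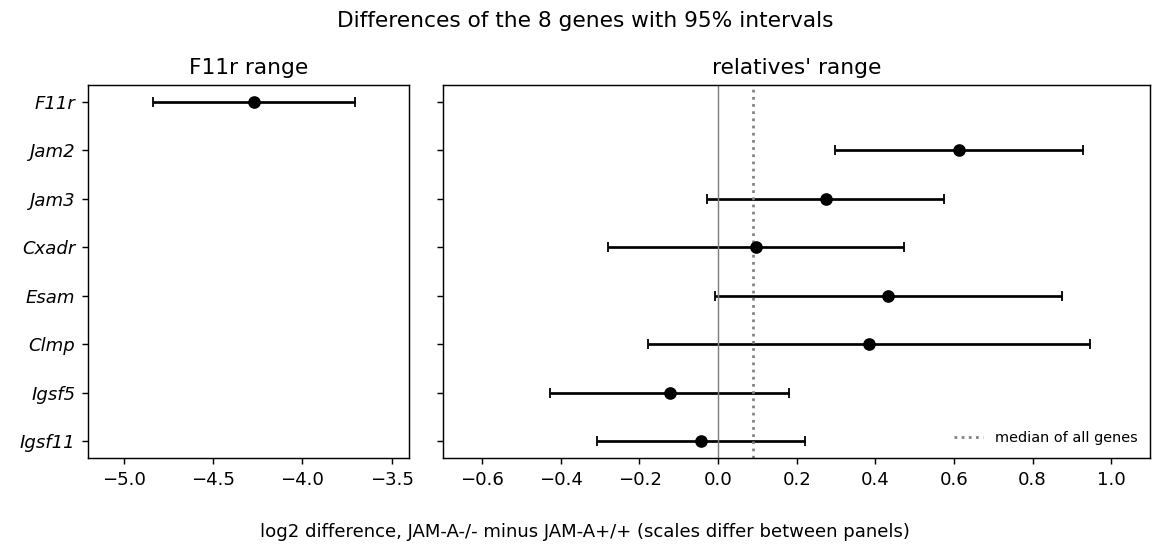
Log2 difference, JAM-A-/- minus JAM-A+/+, of each gene with its 95% interval from limma, on a separate scale for F11r (left) and for the relatives (right). The dotted line is the median of all genes at 0.09, and among the relatives the interval of Jam2 alone lies above 0.

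Jam2 encodes JAM-B, a JAM of endothelial junctions that binds JAM-C on the facing cell. Its log2 value was 7.90, 7.96 and 8.04 in JAM-A-/- tumors, against 7.17, 7.32 and 7.57 in JAM-A+/+ tumors. The JAM-A-/- tumors were close to each other and all higher, with 0.33 between the nearest tumors of the groups. Jam2 averaged 7.97 ± 0.07 in JAM-A-/- tumors and 7.35 ± 0.20 in JAM-A+/+ tumors (SD, n = 3 each), and 1.40% of all genes had a higher difference than its 0.61 (SE 0.14). The 95% interval of the fold change ran from 1.23 to 1.90 around 1.53. The adjusted p was 0.256, and the exact permutation p was 0.1, the smallest possible.

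Jam3 encodes JAM-C, the partner of JAM-B on endothelium and a ligand of the leukocyte integrin that contains the Itgam chain. Its log2 value was 5.57, 5.65 and 5.61 in JAM-A-/- tumors, against 5.27, 5.19 and 5.55 in JAM-A+/+ tumors. All JAM-A-/- tumors were higher, by a margin that tumor 5393 narrowed to 0.02. The log2 difference of 0.27 (SE 0.13, 95% interval -0.03 to 0.58) corresponded to 1.21-fold, with an adjusted p of 0.490 and an exact permutation p of 0.1. Without tumor 5393 the difference was 0.38 and met the thresholds. Jam3 was the 1 gene of the 8 whose mean fell among the 40% dimmest probe sets, and the other 7 passed that filter. Its group means, 5.61 and 5.34, lay below the 6.0 of F11r in JAM-A-/- tumors. At this level transcript cannot be told from background.

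Esam encodes an adhesion molecule of endothelial junctions and platelets. In log2 units it was 6.89, 7.32 and 7.53 in JAM-A-/- tumors, against 6.65, 7.04 and 6.75 in JAM-A+/+ tumors. The groups overlapped because tumor 5333 lay below tumor 5370. Esam averaged 7.25 ± 0.33 in JAM-A-/- tumors and 6.81 ± 0.20 in JAM-A+/+ tumors (SD, n = 3 each), a log2 difference of 0.43 (SE 0.19, 95% interval -0.01 to 0.87) or a fold change of 1.35, with an adjusted p of 0.462 and an exact permutation p of 0.2. The fold was past its threshold and the p was not. Without tumor 5333 the difference was 0.61 and without tumor 5370 it was 0.55, and both then met the thresholds.

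Clmp encodes a CAR-like membrane protein of epithelial tight junctions. It had log2 values of 7.23, 6.88 and 6.92 in JAM-A-/- tumors, against 6.09, 7.05 and 6.74 in JAM-A+/+ tumors. Tumor 5369 was far below the other 5, and without it the difference of 0.38 (SE 0.24, 95% interval -0.18 to 0.95) shrank to 0.12. Leaving out tumor 5370 instead gave 0.60, which met the thresholds. On all 6 tumors its signal in JAM-A-/- tumors was 130.4% of that in JAM-A+/+ tumors (adjusted p = 0.577, exact permutation p = 0.3).

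Cxadr encodes CAR, an epithelial tight junction protein that also serves coxsackieviruses and adenoviruses as a receptor. It measured 8.38, 8.86 and 8.87 in JAM-A-/- tumors, against 8.48, 8.66 and 8.68 in JAM-A+/+ tumors, in log2 units. The JAM-A-/- tumors included both the lowest and the highest values, so the groups overlapped fully. The log2 difference of 0.10 had a 95% interval of -0.28 to 0.47 (adjusted p = 0.845, exact permutation p = 0.6), which leaves room for a fold change between 0.82 and 1.39. Its sign turned under several scalings, with -0.03 after quantile normalization between arrays and -0.05 after quantile normalization over the annotated probe sets.

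Igsf5 encodes JAM4, a relative found at junctions of kidney and intestinal epithelium that binds the scaffold MAGI1. Its log2 value was 8.61, 8.85 and 8.97 in JAM-A-/- tumors, against 8.98, 8.85 and 8.97 in JAM-A+/+ tumors. Only tumor 5333 stood below the rest. Its signal in JAM-A-/- tumors was 91.8% of that in JAM-A+/+ tumors (95% interval 74.4% to 113%, adjusted p = 0.744, exact permutation p = 0.5).

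Igsf11 encodes a cell adhesion protein known from brain and testis. Log2 values of the gene were 6.02, 5.86 and 6.06 in JAM-A-/- tumors, against 5.99, 5.99 and 6.09 in JAM-A+/+ tumors. The values of the groups overlapped within 0.23 log2 units over all 6 tumors, the narrowest range of the 8 genes. All lay within the range of the deleted F11r in JAM-A-/- tumors (5.55 to 6.53). Transcript of Igsf11 therefore cannot be told from background, although its probe set passed the filter on dim probe sets. Its signal in JAM-A-/- tumors was 97.0% of that in JAM-A+/+ tumors (95% interval 80.8% to 117%, adjusted p = 0.906, exact permutation p = 0.8). Across the 7 relatives, the highest upper bound of a fold change was 1.93, for Clmp, and the lowest lower bound was 0.744, for Igsf5.

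The tumors differed among themselves, and some relatives but not all were low in the same tumor. Tumor 5369 had the lowest value of Jam2 among JAM-A+/+ tumors and the lowest value of Esam and of Clmp among all 6 tumors, with log2 deviations of -0.49, -0.38 and -0.73 from the mean of the 6 tumors. Tumor 5333 had the lowest value of Cxadr and of Igsf5, with deviations of -0.28 and -0.26. Other values went otherwise. Tumor 5333 had the highest Clmp (0.41), tumor 5369 the highest Igsf5 (0.11) and tumor 5370 the lowest Jam3 (-0.28). Tumors 5369 and 5333 were the lowest of their genotype for marker genes of endothelium and of luminal epithelium. The mean of 15 endothelial markers deviated by -0.05, 0.23 and 0.33 in JAM-A-/- tumors, against -0.46, 0.08 and -0.13 in JAM-A+/+ tumors, and the mean of 11 luminal epithelial markers by -0.17, 0.19 and 0.23 in JAM-A-/- tumors, against -0.28, -0.03 and 0.06 in JAM-A+/+ tumors.

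**Figure D3:**
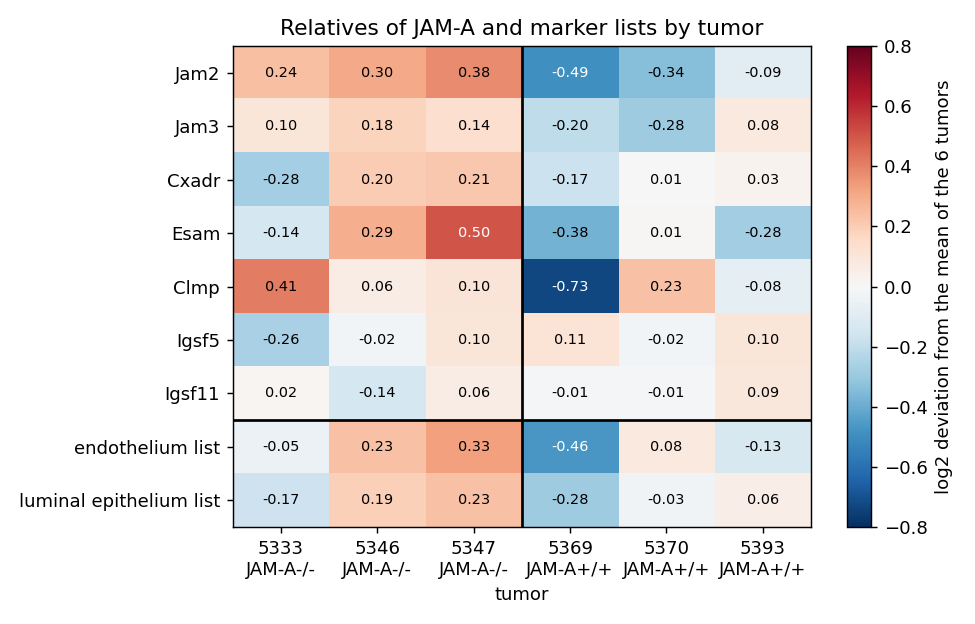
Log2 deviation from the mean of the 6 tumors for the 7 relatives and for the means of the endothelium and luminal epithelium marker lists, with JAM-A-/- tumors in the 3 left columns and JAM-A+/+ tumors in the 3 right columns. Red is above and blue below the mean, and tumor 5369 is below the mean in every row except Igsf5.

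All 15 endothelial markers had a positive log2 difference (median 0.32), beside 71.8% of all genes, and 4 of them, Pecam1, Flt1, Eng and Plvap, met the thresholds, higher in JAM-A-/- tumors, beside 4.73% of all genes. The count depended on single tumors, with 7 of 15 without tumor 5333, 6 without tumor 5370 and 2 without any one of the other 4. The median then lay between 0.20 and 0.48. Of all 19938 genes, 2018 met the thresholds in that direction without tumor 5333 and 950 without tumor 5370, beside 944 on all 6 tumors. Without tumor 5346, 5347, 5369 or 5393 this number was 808, 633, 502 and 1299, in this order. The mean log2 level of the list was 6.97 to 7.35 in the JAM-A-/- group and 6.56 to 7.10 in the JAM-A+/+ group. Of the 15 markers, 14 lay above the 40% dimmest probe sets and 1, Sox17, did not, and RMA values have no 0 that would mark an absent transcript. Pecam1, the endothelial CD31, was 7.42, 7.89 and 8.09 in JAM-A-/- tumors, against 6.74, 7.57 and 7.30 in JAM-A+/+ tumors, an overlap between tumors 5333 and 5370 like that of Esam. Cdh5, which encodes VE-cadherin, had a log2 difference of 0.35 and Kdr, a receptor of vascular endothelial growth factor, one of 0.41, and neither met the thresholds. In tumor tissue, more or fewer cells of a type and more or less RNA per cell cannot be told apart.

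Of 11 luminal markers, 10 had a positive difference (median 0.17), beside 71.8% of all genes (median 0.09). None met the thresholds, beside 4.73% of all genes higher and 0.592% lower. All luminal markers lay above the 40% dimmest probe sets. The mean log2 level of the list was 10.58 to 10.98 in the JAM-A-/- group and 10.47 to 10.81 in the JAM-A+/+ group. Epcam, an epithelial adhesion molecule, differed by 0.17, Cdh1, which encodes E-cadherin, by 0.15 and the keratin Krt8 by 0.16, and each overlapped between the groups. The keratins Krt18 (0.34) and Krt19 (0.41) had higher differences and overlapped too. Krt7, another keratin, was 10.07, 9.91 and 9.93 in JAM-A-/- tumors, against 9.56, 9.65 and 9.69 in JAM-A+/+ tumors, without overlap, a log2 difference of 0.34 and an adjusted p of 0.389. It was 1 of 11 luminal markers with all JAM-A-/- tumors higher, beside 12.4% of all genes. Leaving out 1 tumor gave list medians from 0.04 (without 5369) to 0.29 (without 5333). Without tumor 5333, 2 of 11 genes met the thresholds, beside 2018 of all 19938 genes in the higher direction. After quantile normalization over the annotated probe sets the luminal median was -0.02 and the endothelial median 0.24, beside 0.00 over all genes. Whether the endothelial and luminal lists differed from each other was not tested.

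Each array was also centred on the mean of a marker list, which shifts all genes of that array alike. Centred on endothelial markers, Jam2 was 7.95, 7.73 and 7.71 in JAM-A-/- tumors, against 7.63, 7.24 and 7.70 in JAM-A+/+ tumors. The groups were then 0.01 apart, and the log2 difference of 0.27 no longer met the thresholds, which 0.301% of all genes still met in the higher direction. On this scale the median of all genes moved by -0.34, to -0.25, so the distance of Jam2 from the median gene was the same as before. Esam had a log2 difference of 0.09 on this scale, Clmp one of 0.04, Jam3 one of -0.07, Cxadr one of -0.25 and Igsf11 one of -0.39. Igsf5 was 8.66, 8.62 and 8.64 in JAM-A-/- tumors, against 9.44, 8.77 and 9.10 in JAM-A+/+ tumors, so that all JAM-A-/- tumors were lower, and its difference of -0.47 (adjusted p = 0.308) did not meet the thresholds. Most genes were lower on this scale, and 9.77% of all genes had a difference above 0. Centred on luminal markers, Jam2 was 8.07, 7.77 and 7.81 in JAM-A-/- tumors, against 7.45, 7.35 and 7.51 in JAM-A+/+ tumors, and its difference of 0.44 met the thresholds, as did 0.943% of all genes in that direction. Igsf5 was lower in all JAM-A-/- tumors on the luminal scale, by 0.29, without meeting the thresholds. Both scales shift the same values of Igsf5, whose groups overlapped as deposited. On the luminal scale the median of all genes was -0.08, and 32.1% of genes had a difference above 0. The share of all genes without overlap was not counted on either scale. After quantile normalization over the annotated probe sets, which brought the median of all genes to 0.00, Jam2 had a difference of 0.51 and met the thresholds with 1.80% of all genes. Because centring shifts every gene alike, the part of the endothelial markers in the difference of Jam2 was not tested.

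**Figure D4:**
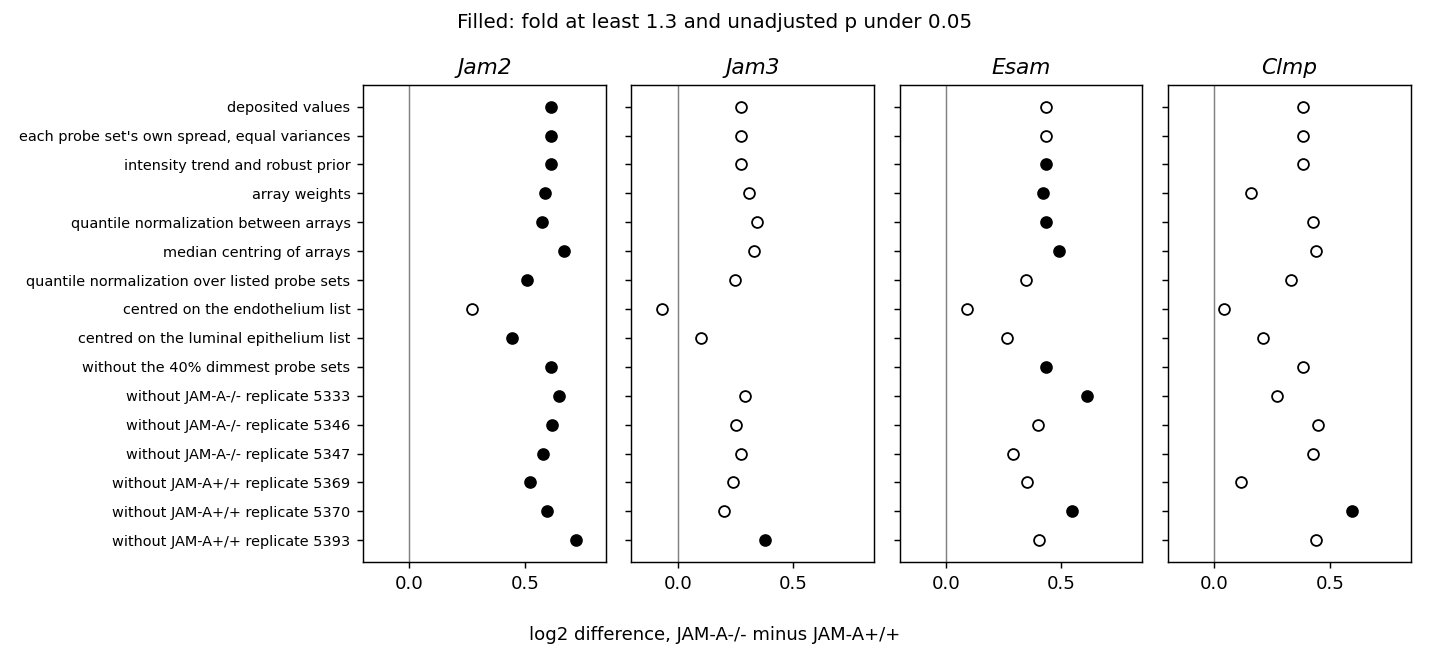
Log2 difference, JAM-A-/- minus JAM-A+/+, of Jam2, Jam3, Esam and Clmp in the deposited values (top row) and under each alternative. Filled points met the thresholds of fold and p, and Jam2 is filled in every row except centring on the endothelium list. Jam3 has no point without the 40% dimmest probe sets, which include it.

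Markers of other cell types also varied between tumors. The thresholds, higher in JAM-A-/- tumors, were met by 2 of 9 fibroblast markers (median difference 0.34), 2 of 7 pericyte markers (0.32), 3 of 8 basal and myoepithelial markers (0.13), 1 of 5 lymphatic endothelial markers (0.20), 2 of 7 skeletal muscle markers (0.66), 1 of 4 Schwann cell markers (0.06) and 1 of 8 salivary gland markers (0.14), beside 4.73% of all genes. None of 7 leukocyte markers (0.13) and none of 5 adipocyte markers (0.16) met them. The 3 basal and myoepithelial genes were Acta2 (0.90), Tagln (0.60) and Cnn1 (0.44). Krt5 (0.08), Krt14 (0.01), Trp63 (0.03), Oxtr (0.07) and Myh11 (0.17) of that list did not meet the thresholds. Several of these counts rested on single tumors. No fibroblast marker met the thresholds without tumor 5346, 5347 or 5369, and without 5369 the fibroblast median was 0.11. Without tumor 5346, 5369 or 5393, 1 of 8 basal markers met them. The skeletal muscle count ran from 0 of 7, without tumor 5346 or 5393, to 5 of 7, without tumor 5370. The pericyte count was 2 or 3 of 7 in each of these fits. Over the fits with 1 tumor left out, the lymphatic count ran from 0 to 2, the Schwann cell count from 0 to 1 and the salivary gland count from 0 to 1.

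Tumor 5369 had the lowest mean of the 6 tumors for the fibroblast, pericyte, basal, leukocyte, adipocyte and lymphatic endothelial lists. It did not for the skeletal muscle list, which was lowest in tumor 5393 (deviation -1.05, against -0.40 in tumor 5369), the salivary gland list, lowest in tumor 5370 (-0.38), or the Schwann cell list, lowest in tumor 5333 (-0.24). The part of these lists in the values of the relatives was not tested.

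The remaining CTX-family genes of the list did not move as a group. Of Gpa33, Vsig1, Vsig2 and Jaml, 2 of 4 had a positive difference (median 0.05), beside 71.8% of all genes. None met the thresholds, beside 4.73% of all genes higher and 0.592% lower. Vsig1, a junction protein known from gastric epithelium, had the smallest p of them, with 3.18, 3.18 and 3.27 in JAM-A-/- tumors, against 2.96, 2.94 and 2.87 in JAM-A+/+ tumors. These groups did not overlap, but the log2 difference of 0.29 (SE 0.11, adjusted p = 0.419) was below the fold threshold, and the probe set was among the dimmest. Vsig1 was 1 of 4 with all JAM-A-/- tumors higher, beside 12.4% of all genes. Integrins that bind JAMs showed a positive difference in 8 of 8 genes (median 0.15), beside 71.8% of all genes. No integrin of the list met the thresholds, beside the same 4.73% and 0.592% of all genes. Without tumor 5333, 2 of 8 met them, beside 2018 of 19938 genes in the higher direction, and the median was 0.31. Without tumor 5347 the median was 0.07. Itgam, the alpha chain of the leukocyte integrin that binds JAM-C, had the smallest p, with 7.15, 7.46 and 7.61 in JAM-A-/- tumors and 6.88, 7.47 and 7.08 in JAM-A+/+ tumors (log2 difference 0.26, SE 0.19, adjusted p = 0.619). It is also one of the leukocyte markers.

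Inside the cell, scaffold and Rap1 pathway partners of JAMs and CAR were measured for 13 of 14 genes. Of these, 9 had a positive difference (median 0.05), beside 71.8% of all genes (median 0.09). None met the thresholds in either direction, beside 4.73% of all genes higher and 0.592% lower. The median was -0.08 after quantile normalization over the annotated probe sets, beside 0.00 over all genes. No partner met the thresholds when any 1 tumor was left out. In those fits 502 to 2018 of all 19938 genes met them higher and 90 to 185 lower. Tjp1, which encodes the tight junction scaffold ZO-1, had a log2 difference of 0.05. Pick1, a PDZ protein that binds JAM tails, had the smallest p, with 9.03, 8.87 and 8.97 in JAM-A-/- tumors, against 8.75, 8.77 and 8.72 in JAM-A+/+ tumors. Its groups did not overlap, and the log2 difference of 0.21 (SE 0.11, adjusted p = 0.511) was below the fold threshold. With Pick1, 3 of 13 partners had all JAM-A-/- tumors above all JAM-A+/+ tumors, beside 12.4% of all genes.

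For the 3 relatives whose values spanned at least 0.5 log2 units, the genes with the most similar profile over the 6 tumors were sought among the other 19937 genes, by the root-mean-square difference of centred log2 values. For Jam2 these were Tmem255a (0.0452), Drg2 (0.0488) and Vps25 (0.0518). For Esam they were Olfr484 (0.0556), Col9a1 (0.0627) and Csf2rb2 (0.0692), and for Clmp they were Xdh (0.0748), Igf1r (0.0767) and Gzmc (0.0959). None of these 9 genes is an endothelial marker of the list. That list holds only 15 genes of the many compared, so nothing is drawn from their absence. The names are given as a description.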

How the data were processed

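RNA of 6 tumors was hybridized to Affymetrix Mouse Gene 1.0 ST arrays. The authors deposited 1 log2 value per probe set and array, with 2 decimals, from RMA in Affymetrix Expression Console 1.1 (submitters' processing notes). RMA brings all arrays to a common distribution of probe intensities, so total RNA is not measured. Probe sets with exactly 1 symbol in the platform annotation were used (21789 of 35557), 1 per gene with the highest mean. Groups came from titles and genotypes, and no tumors are paired. For tumor 5347 the tissue label leaves out the loss of JAM-A that its title and genotype state. The 35557 probe sets were fitted with limma 3.58.1 in R 4.3.3 (default empirical Bayes, Benjamini-Hochberg adjustment), and the exact permutation test was two-sided. Array medians lay between 6.23 and 6.34. The steps were tested on simulated data.

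Named were all 8 genes, the partner genes with the smallest p in each list where none met the thresholds, marker genes in list order and the 3 nearest profiles. Flt1, Eng, Plvap, Sox17, Krt7, Krt18, Krt19, Tjp1 and the 8 basal and myoepithelial genes were added after their values were seen. The genes and lists were chosen with earlier results of these data known. Alternatives were other variance models, array weights, 5 scalings, a filter on dim probe sets, a fold threshold of 1.5 and leaving out each tumor. The RefSeq table of GRCm38.p6 served for gene names and for the chromosomes of the 8 genes only.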

Additional observations from a re-analysis of the deposited data

How the results depend on the processing

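F11r met the thresholds in all 15 alternatives with a value, with log2 differences of -4.61 to -4.05, and Jam2 in 14 of 15, with 0.27 to 0.72. Jam2 lost its call when arrays were centred on the endothelium list (0.27), where Jam3 was at -0.0698 and Cxadr at -0.25. No relative was called there (0), beside 60 of 19938 genes (0.301%) in the higher direction. Only 9.77% of all genes had a difference above 0 on that scale. Cxadr was also negative at -0.0308 (quantile normalization between arrays), -0.0517 (over annotated probe sets) and -0.0742 (centred on luminal markers), and Igsf11 positive at 0.0189 (quantile) and 0.0133 (median centring). Esam met the thresholds, making 2 relatives, with an intensity trend (0.43), array weights (0.42), quantile normalization (0.43), median centring (0.49) and without the 40% dimmest probe sets (0.43). With trend, weights, quantile normalization and median centring, 937, 1309, 570 and 1620 of 19938 genes met them in the higher direction, in this order. Without the dimmest probe sets 932 of 13225 genes did, beside 944 of 19938 in the deposited values. Without 1 tumor, Esam ranged from 0.29 to 0.61, Clmp from 0.12 to 0.60, Jam3 from 0.20 to 0.38 and Igsf11 from -0.0833 to 0.0167, and between 1 and 3 relatives met the thresholds. In these fits 502 to 2018 of 19938 genes met them in the higher direction. The 3 relatives were without tumor 5370, where 950 genes met them. The count of the 8 genes with an adjusted p under 0.05 was 0 with each probe set's own spread alone (F11r adjusted p = 0.453, over a range of 5.19e-06 to 0.453 in the alternatives) and 0 to 1 without 1 tumor. No relative passed the adjustment in any alternative, and the lowest adjusted p was 0.0987, for Jam2.

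No second probe set of a member was measured, so that alternative gave no value. No paired analysis was possible because the tumor numbers are not shared between genotypes. With 3 arrays per group, the 95% intervals of Esam and Clmp include 0, and for every relative a p that misses the threshold does not show equal levels. Jam3, Vsig1, Sox17 and Cnn1 were among the 40% dimmest probe sets, and Igsf11 lay at the level of F11r in JAM-A-/- tumors.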
